A study of Xenopus tropicalis with 52 samples.

Results

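The mRNAs of 10 kinases that drive or guard mitosis were followed through the first hours of *Xenopus tropicalis* development: aurka, aurkb, plk1, melk, cdk1, cdk2, bub1, bub1b, ttk and nek2. They were chosen by gene name, and each was found once among the 21750 genes counted for Series 1 and 2 and once among the 20193 genes counted for Series 3, which have 19372 genes in common. All 10 passed the filter on low counts in every comparison.

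The study sequenced 52 libraries of whole embryos, each made from a pool, with no treatment or genotype named in the labels. Series 1 held 7 polyA+ libraries from 0 to 3.0 h post fertilisation (hpf), Series 2 held 17 polyA+ libraries that began at 2.5 hpf and ended at 9.5 hpf, with 2 libraries each at 4.5 and 6.5 hpf, and Series 3 held 19 polyA+ libraries up to 9.0 hpf beside 9 Ribo-Zero libraries, 1 for every hour until 8 hpf. A polyA+ library is made from RNA caught by its polyA tail and a Ribo-Zero library from total RNA depleted of ribosomal RNA, so that in Series 3, where each Ribo-Zero library shared its RNA with the polyA+ library of that hour, the pair shows adenylated RNA beside total RNA. Every series came from the eggs of 1 female. Series 3 developed more slowly. By the staging of the study the onset of large-scale zygotic transcription, the mid-blastula transition, had passed by 5.0 hpf in the earlier series but not yet by 6.0 hpf in Series 3. Series 3 also came from another frog colony and was made with another pool size, library kit and sequencer. These cannot be told apart from the female in any comparison of Series 3 with another series.

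Mitotic entry is triggered by Cdk1 bound to cyclin B, while Cdk2 is best known for its part in S phase. Aurora A and Nek2 act at the centrosome, Aurora B at the centromere and the midzone, Plk1 at all of these places, and Bub1, BubR1 (bub1b) and Mps1 (ttk) form the core of the spindle checkpoint that delays anaphase until every chromosome is attached. Early frog embryos divide quickly with little transcription and live on stored maternal mRNA, and several of these kinases are encoded by mRNAs of the Eg class, first found in *Xenopus* eggs as messages that carry a polyA tail in the egg and lose it after fertilisation: cdk2 (Eg1), aurka (Eg2) and melk (Eg3), together with the mitotic motor kif11 (Eg5) and the condensin subunit ncapd2 (Eg7).

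Levels are given as normalised reads, that is reads per 25000000 reads of a library without its ribosomal row. A library of Series 1 held 19925593 to 24659133 counts in all, one of Series 2 22791007 to 33907947, and one of Series 3, Ribo-Zero included, 4539916 to 17998536. The limit set by 3 counts was at most 4.03, 3.31, 16.7 and 19.5 normalised reads in Series 1, Series 2, and the polyA+ and Ribo-Zero libraries of Series 3, and it covers counting error only. Levels are on this library scale, whereas slopes are relative to the other genes through TMM scaling, so a ratio of levels and a slope differ where the median gene moves. Gene lengths were not used here, and levels were compared within a gene and not between genes. In RNA of whole embryos, fewer cells holding an mRNA cannot be told apart from less of it per cell.

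**Figure D1:**
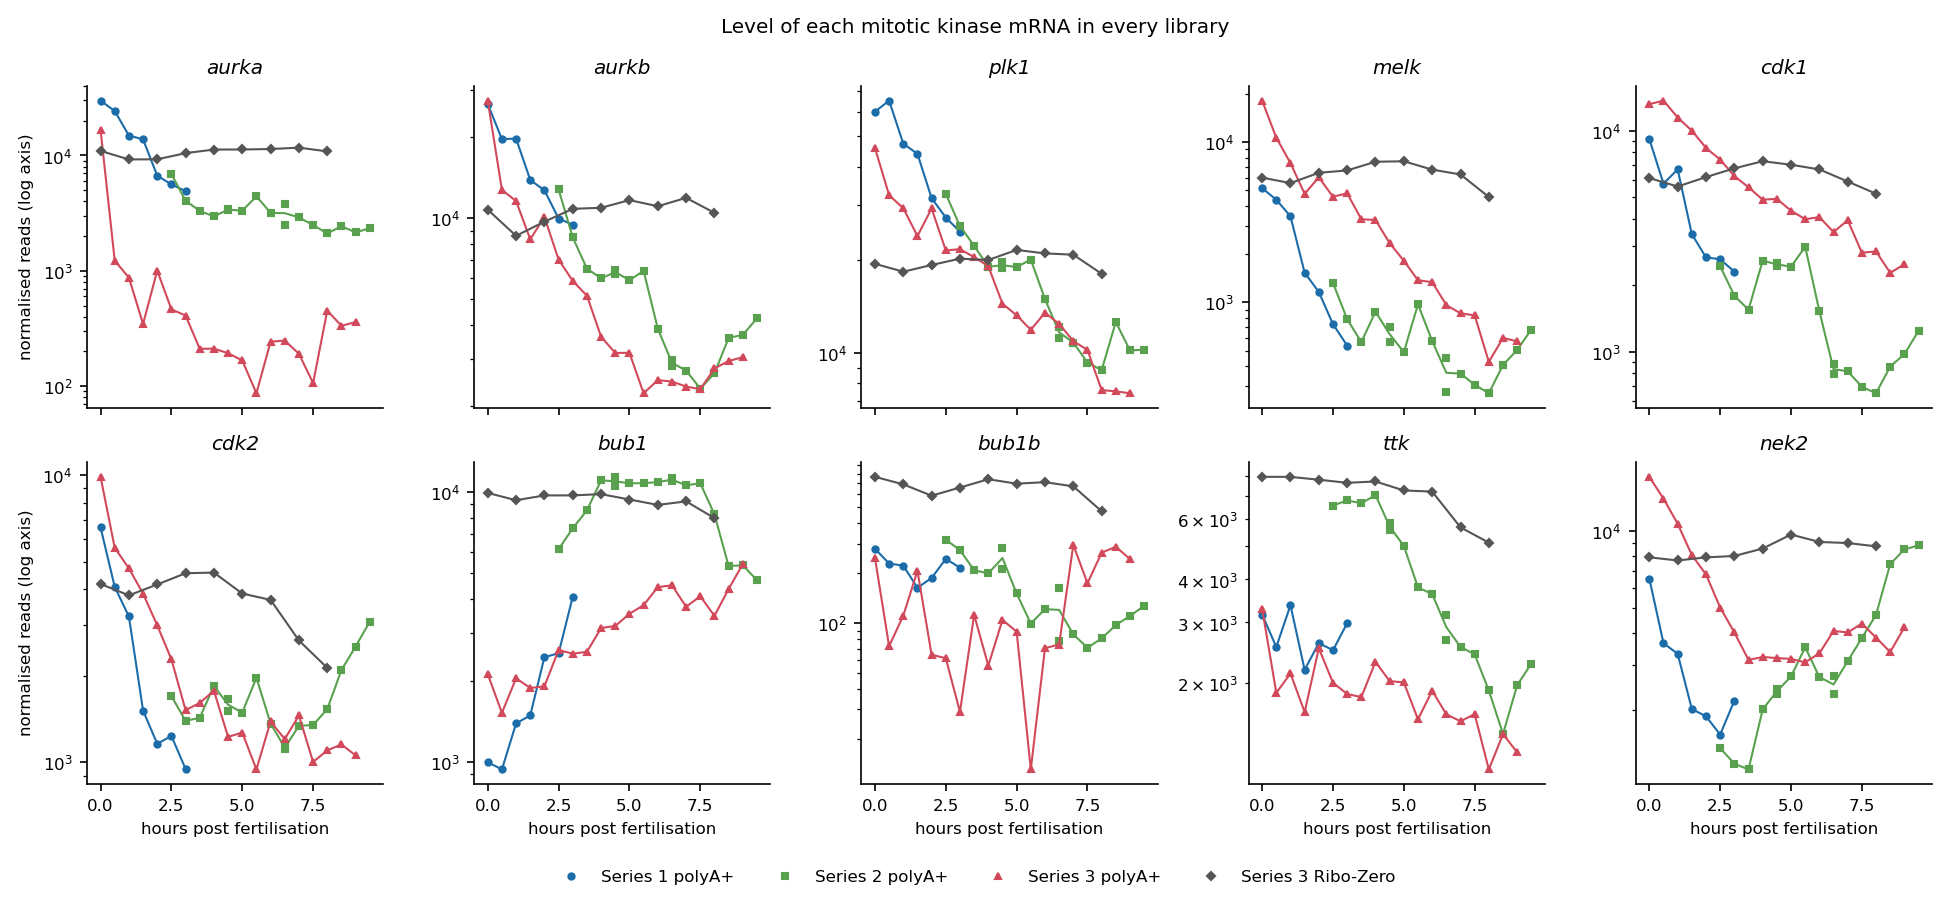
Normalised reads (log axis, a separate scale for each gene) of the 10 kinase mRNAs against hours post fertilisation in every library, with lines through the mean of each time point. In Series 3 the Ribo-Zero level of aurka stays between 9238 and 11683 normalised reads while its polyA+ level drops from 16668 at 0 hpf to 1225 at 0.5 hpf, and bub1 is the gene whose polyA+ level climbs after fertilisation in Series 1.

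At fertilisation the ratio of polyA+ to Ribo-Zero level was above that of the median gene for 7 kinase mRNAs and below it for the 3 checkpoint kinases. It was 1.52 for aurka, 2.54 for aurkb, 2.36 for plk1, 3.02 for melk, 2.16 for cdk1, 2.36 for cdk2 and 2.06 for nek2, all above the median of 10292 genes, which was -0.98 on the log2 scale. For the checkpoint kinases it was lower, at 0.214 for bub1, 0.324 for bub1b and 0.414 for ttk. On the log2 scale these were -2.23, -1.62 and -1.27, which is -1.25, -0.65 and -0.29 relative to the median gene. The lowest and the highest 5% of all genes had log2 ratios below -4.73 and above 1.92. Each ratio rests on 1 library of each type and is relative to the other genes of that library, not a share of adenylated molecules, and no test was made of this split, which was noticed in the data.

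After fertilisation the adenylated RNA of most members fell against their total RNA. Over 0, 1, 2 and 3 hpf of Series 3, the slope of the polyA+ level minus that of the Ribo-Zero level was called lower for 8 of 10 members and higher for 0, with a median of -0.78 log2 per h against -0.0085 over the 11521 genes tested. Of all genes tested 8.27% were called lower and 9.5% higher. For the Eg mRNAs aurka, cdk2 and melk the study had already reported this loss from the same Series 3 libraries, so their calls are not new support. A call is an adjusted p under 0.05 in edgeR's quasi-likelihood test, and since the time points stand in for replicates, the p-values measure scatter around a straight line in 1 clutch. The polyA+ to Ribo-Zero ratio of each member was also taken as a percentage of its own value at 0 hpf. The median of these percentages was 58.9% after 1 h, 41.3% after 2 h and 24.1% after 3 h, and it was 21.6% at 8 hpf.

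These calls depended on how the scatter was estimated. With the time point as a replicate block, which uses the shared RNA of each pair and leaves 2 residual degrees of freedom, 0 of 10 members and 0 of 11521 genes were called. The slopes hardly moved, and the edgeR adjusted p of the 8 members called without the block then lay between 0.0614 and 0.089. At an unadjusted p under 0.05 the blocked fit had 9 members and 3311 genes, or 28.7% of genes. Without the libraries of 2.0 or of 3.0 hpf 0 members were called, without 0.0 hpf 5 and without 1.0 hpf 9, whereas DESeq2 called 9, beside 13.6% of all genes. The count of all genes called lower varied between the fits with omitted points too, over the range given in the last paragraph. The member counts of these fits are therefore not read as a result about the members. Without 2.0, 3.0, 0.0 and 1.0 hpf, 24.1%, 16.2%, 25.8% and 52% of all genes had an unadjusted p under 0.05 by edgeR. The members under it were 9, 6, 8 and 9.

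The largest fall was that of aurka (Xetrov72017409), which encodes Aurora A. Its Ribo-Zero level was 10945 normalised reads at 0 hpf and 9238, 9259 and 10473 at 1, 2 and 3 hpf. Its polyA+ level was 16668, 872, 1004 and 409 at the same times. Total aurka RNA thus stayed in a narrow range while the adenylated RNA dropped within the first sampled interval, from 16668 at 0 hpf to 1225 at 0.5 hpf, or 7.35% of the first point. The slope difference was -1.81 ± 0.40 (SE) log2 per h (edgeR adjusted p = 0.0265). A straight line describes such a drop poorly: without the 0 hpf libraries the slope difference was -0.70 (edgeR adjusted p = 0.132), and as a step between 0 hpf and the later hours it was -4.43 log2 (edgeR adjusted p = 0.00727). The height of the step rests on the single pair of libraries at 0 hpf, which held 11563 polyA+ and 4467 Ribo-Zero counts of aurka.

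The other Eg mRNAs fell more evenly. The polyA+ level of cdk2 (Xetrov72031041) was 9864, 4737, 2999 and 1522 normalised reads at 0, 1, 2 and 3 hpf and its Ribo-Zero level 4180, 3815, 4164 and 4554, a slope difference of -1.03 ± 0.072 log2 per h (edgeR adjusted p = 0.00559). For melk (Xetrov72023632), a kinase of dividing and progenitor cells, the polyA+ level was 18137, 7393, 6029 and 4793 and the Ribo-Zero level 6000, 5548, 6435 and 6654, a slope difference of -0.78 ± 0.13 (edgeR adjusted p = 0.0131). The polyA+ level of both genes thus declined at each hour, and their Ribo-Zero level was higher at 3 than at 0 hpf. Outside the members, kif11 (Xetrov72024951) had polyA+ levels of 33014, 17476, 9473 and 4813 and a slope difference of -1.07 ± 0.073 (edgeR adjusted p = 0.00559). Its partner in the list, ncapd2 (Xetrov72024854), had a slope difference of -0.46 ± 0.073 (edgeR adjusted p = 0.0118), so that both Eg mRNAs outside the members were called lower.

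Among the other mitotic kinases, the mRNAs of the centrosomal nek2 and of aurkb had fitted slopes of like size but fell in different shapes. The polyA+ level was first below 50% of its first point at 0.5 hpf for aurkb and at 1.5 hpf for nek2. The polyA+ level of nek2 (Xetrov72009788) was 16275, 10677, 6766 and 4020 normalised reads at 0, 1, 2 and 3 hpf, beside Ribo-Zero levels of 7894, 7672, 7889 and 7989, and its slope difference was -0.78 ± 0.069 log2 per h (edgeR adjusted p = 0.00637). That of aurkb (Xetrov72042237) was 27390, 11592, 10116 and 5854, beside 10773, 8610, 9719 and 10850, with a slope difference of -0.81 ± 0.11 (edgeR adjusted p = 0.00948). The 2 mRNAs with the shallowest called falls were those of plk1 (Xetrov72004931), at -0.45 ± 0.074 (edgeR adjusted p = 0.0129), and of cdk1 (Xetrov72026627), at -0.53 ± 0.084 (edgeR adjusted p = 0.0118). In plk1 the polyA+ level was 45934, 29354, 29303 and 21662 and the Ribo-Zero level 19432, 18328, 19261 and 20193. In cdk1 the polyA+ level was 13180, 11472, 8360 and 6238, and its ratio to the Ribo-Zero level was still 95.1% of the starting value at 1 hpf, against 6.2% for aurka.

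The slope differences of the checkpoint kinases ranged from -1.02 to -0.032 log2 per h. For bub1 (Xetrov72000260) the polyA+ level was 2113, 2040, 1905 and 2514 normalised reads at 0, 1, 2 and 3 hpf and the Ribo-Zero level 9891, 9294, 9683 and 9687, a slope difference of -0.032 ± 0.095 log2 per h (edgeR adjusted p = 0.836). For ttk (Xetrov72000429) the polyA+ level was 3291, 2134, 2526 and 1860 and the slope difference -0.31 ± 0.09, which missed the threshold (edgeR adjusted p = 0.0548). The remaining one, bub1b (Xetrov72015470), had a slope difference of -1.02 ± 0.14 (edgeR adjusted p = 0.0096), but its polyA+ levels of 248, 111, 64.2 and 29 rest on 172, 66, 33 and 9 counts. In bub1b the Ribo-Zero level was 764, 688, 588 and 658.

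**Figure D2:**
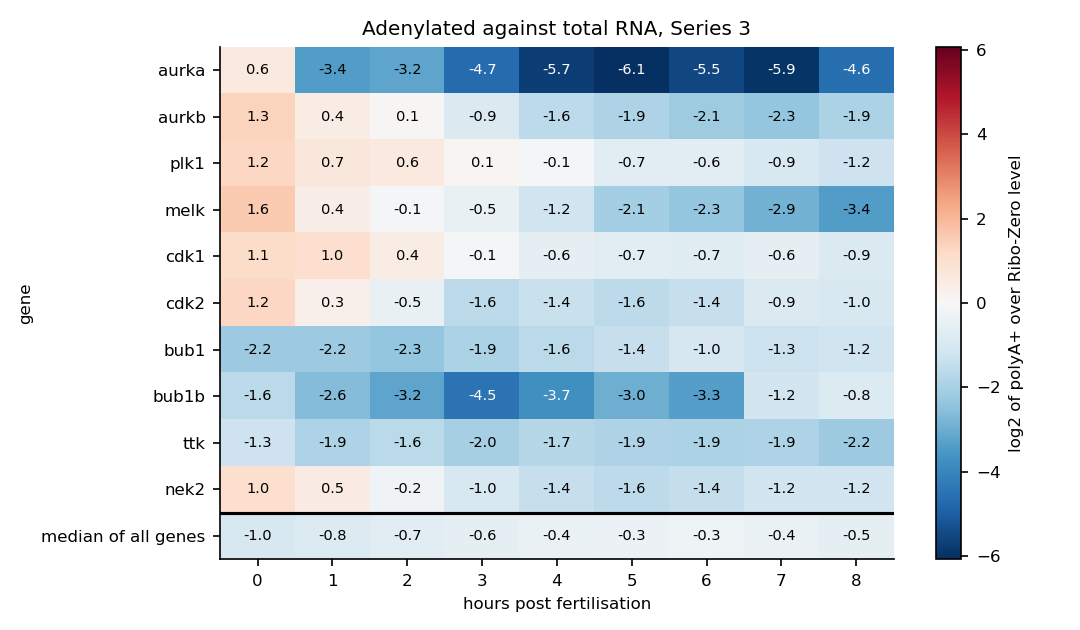
Log2 of the polyA+ level over the Ribo-Zero level at each whole hour of Series 3, for the 10 kinase mRNAs and for the median of all genes with at least 10 counts in both libraries; red marks more and blue less polyA+ than Ribo-Zero signal. 7 rows start red and turn blue, aurka within the first hour, whereas bub1 starts blue and pales.

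After 3 hpf the members took separate courses. With the ratio of each member as a percentage of its own value at 0 hpf, the median, 24.1% by then, lay between 20.7% and 22.8% from 4 to 8 hpf. The ratio of polyA+ to Ribo-Zero level in aurka was -4.68 on the log2 scale at 3 hpf, -6.08 at 5 hpf and -4.58 at 8 hpf. In melk it kept falling, from -0.47 at 3 hpf to -3.42 at 8 hpf, or 3.1% of its value at 0 hpf. For bub1 it went from -2.23 at 0 hpf to -1.01 at 6 hpf, or from -1.25 to -0.76 relative to the median gene, whose own ratio rose from -0.98 to -0.25. For bub1b it went from -4.50 at 3 hpf to -0.83 at 8 hpf. All 10 members lay below the median gene at 5, 6, 7 and 8 hpf, where the median of all genes was between -0.55 and -0.25.

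From 5 to 8 hpf, across the mid-blastula transition of Series 3, the slopes of polyA+ and Ribo-Zero level differed for 0 of 10 members by edgeR without the block, with 1.65% of the 11382 genes called lower and 3.83% higher. The median of the members was 0.14 log2 per h, against 0.029 over all genes, and 6 members and 24.5% of all genes had an unadjusted p under 0.05. With the time point as a replicate block 3 members were called higher, aurka at 0.56 (edgeR adjusted p = 0.0381), cdk2 at 0.39 (edgeR adjusted p = 0.0464) and bub1b at 1.01 (edgeR adjusted p = 0.039), each by the slope of polyA+ level minus that of Ribo-Zero level in log2 per h. In that fit 5.68% of all genes were called higher. DESeq2 also called aurka, cdk2 and bub1b higher, beside 6.04% of genes, and melk lower, beside 5.69%. A higher difference can come from either library type. Over 5.0 to 9.0 hpf the polyA+ level alone had slopes of 0.46 for aurka, 0.76 for bub1b and 0.063 for cdk2 (edgeR adjusted p = 0.0209, 0.0117 and 0.404). The Ribo-Zero level at 8 hpf was 51.0% of that at 0 hpf for cdk2, 61.9% for bub1b and 99.1% for aurka. Without the 8.0 hpf libraries the unblocked slope difference of aurka went from 0.57 to 0.13 (edgeR adjusted p = 0.749). The polyA+ level of aurka was 167, 243, 191 and 452 normalised reads at 5, 6, 7 and 8 hpf, from 49, 100, 56 and 85 counts, and the last of these was 2.71% of the level at 0 hpf.

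Series 1 asks whether the early fall was seen in another clutch, without Ribo-Zero libraries. From 0 to 3.0 hpf 9 of 10 members were called lower in its polyA+ libraries and 1, bub1, higher, with a median of -0.76 log2 per h against 0.002 over all genes. In this series 29.9% of the 11551 genes tested were called lower and 31.9% higher. In the polyA+ libraries of Series 3 over the same hours 9 members were called lower and 0 higher, with a median of -0.74 against -0.0095, while 17% of 9947 genes were called lower and 17.4% higher. Scaled to the library total, as the authors scaled, the median of all genes moved by more than 0.1, to 0.23 in Series 1 and 0.11 in Series 3, and 7 of 10 members were called lower in each, beside 12.2% and 8.01% of genes, bub1b and ttk having lost their calls. The share of calls that were higher then went from 51.7% to 78.3% in Series 1 and from 50.6% to 75.8% in Series 3. The same genes were sensitive to single time points: bub1b lost its call in Series 1 without 0.0 or 3.0 hpf (edgeR adjusted p = 0.0874 and 0.0567), and in Series 3 bub1b lost it without 0.0, 1.0, 2.0, 2.5 or 3.0 hpf (edgeR adjusted p of 0.0647 to 0.198) and ttk without 0.0, 2.5 or 3.0 hpf (edgeR adjusted p of 0.0814 to 0.177).

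In Series 1 the level of aurka was 29875, 24281, 14883, 13787, 6681, 5613 and 4903 normalised reads at successive time points from 0 to 3.0 hpf, a slope of -1.18 ± 0.11 log2 per h (edgeR adjusted p = 2.89e-05). The fall in this clutch was gradual, with 81.3% of the first level left at 0.5 hpf. The steepest slope of Series 1 was that of melk, which went from 5161 to 538 normalised reads, at -1.42 ± 0.099 (edgeR adjusted p = 1.93e-05). The shallowest called falls were those of ttk, from 3164 to 2985 by way of 2185 at 1.5 hpf (-0.28 ± 0.077, edgeR adjusted p = 0.00997), and of bub1b, from 281 to 216 (-0.31 ± 0.10, edgeR adjusted p = 0.0222). The level of bub1 was 999, 938, 1389, 1487, 2443, 2523 and 4086, a slope of 0.47 ± 0.073 (edgeR adjusted p = 0.000412). By 3.0 hpf the bub1 level of Series 1 was 4.09 times its first level on the library scale, on which its slope was 0.70 and the median of all genes 0.23 log2 per h. At every point from 1.0 hpf it lay above both levels at 0 and 0.5 hpf.

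**Figure D3:**
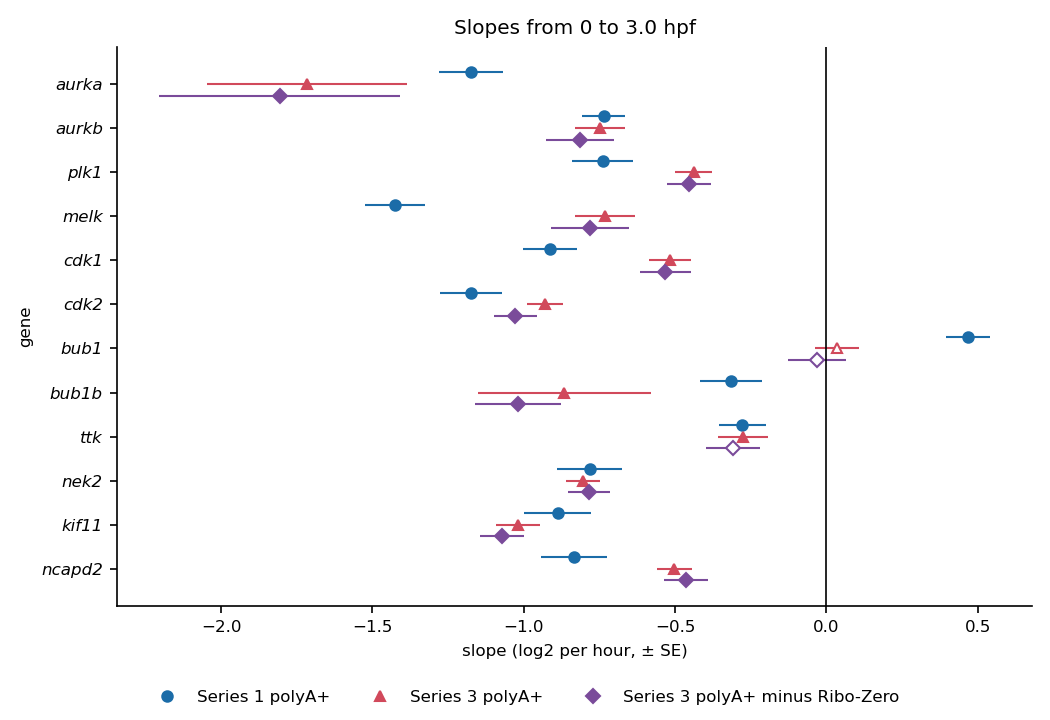
Slopes in log2 per hour (± SE) from 0 to 3.0 hpf for the 10 kinase mRNAs and the Eg mRNAs kif11 and ncapd2, as polyA+ level in Series 1 (circles) and Series 3 (triangles) and as polyA+ minus Ribo-Zero level in Series 3 (diamonds); filled symbols have an adjusted p under 0.05. Most symbols lie left of 0, and bub1 lies right of it in Series 1 at 0.47.

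The early slopes of both clutches were compared in 1 model over the 14 polyA+ libraries and the 11227 genes tested in both tables, of which 3.95% were called lower and 3.53% higher in Series 3. Of the members 1 was called lower and 2 higher in Series 3 minus Series 1. For bub1 the difference was -0.40 ± 0.096 log2 per h (edgeR adjusted p = 0.0283), the Series 3 level being nearly flat from 2113 at 0 hpf to 2514 at 3.0 hpf. For melk it was 0.73 ± 0.14 (edgeR adjusted p = 0.0124), a slower fall in Series 3, from 18137 to 4793 normalised reads. For cdk1 it was 0.42 ± 0.12 (edgeR adjusted p = 0.0462), and this call was lost with 3 of the 4 other ways of scaling, testing and filtering. Each of these calls was lost when Series 3 times were multiplied by 0.8, the ratio of the cell cycle lengths given by the study, (edgeR adjusted p = 0.0651 for bub1, 0.0718 for melk and 0.205 for cdk1), and without 3.0 hpf (0.123, 0.152 and 0.133). The call of bub1 was also lost without 0.0, 1.0 or 2.0 hpf (edgeR adjusted p of 0.051 to 0.0609), that of melk without 2.5 hpf (edgeR adjusted p = 0.104), and that of cdk1 without any 1 of the 7 points (edgeR adjusted p of 0.0541 to 0.196). For aurka the difference of -0.49 ± 0.38 missed the threshold (edgeR adjusted p = 0.429), and at this error it does not show that the clutches were alike.

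Levels also differed where Series 1 and Series 2 overlapped, at 2.5 and 3.0 hpf, with 1 library each. The ttk level was 2492 and 2985 normalised reads in Series 1 and 6556 and 6788 in Series 2, or 2.63 and 2.27 times as high. For bub1 the ratio was 2.43 and 1.79, and the remaining 8 members lay between 0.567 and 1.81. These differences were not tested. For some genes the study holds offsets between these series to be a likely effect of relative normalisation. It corrected them gene by gene, which was not done here. For highly divergent genes it proposes real variability between clutches. The replicate libraries of Series 2 show scatter within 1 clutch at later hours, not between clutches. Over genes with a mean of at least 100 normalised reads their absolute log2 difference had a median of 0.168 at 4.5 hpf and 0.199 at 6.5 hpf. The 95th percentiles were 0.615 and 0.712. Among the members the replicates differed most for bub1b at 6.5 hpf, with 162 and 77.8 normalised reads, for melk, with 450 and 277, and for aurka, with 3810 and 2507.

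The polyA+ levels towards gastrula were next examined. Series 2 has no Ribo-Zero libraries, so new RNA cannot be told apart there from stored RNA that regained a polyA tail. In Series 2 from 5.0 to 9.5 hpf 2 members were called higher, cdk2 and nek2, and 2 lower, bub1 and ttk, over 11 libraries, with 35.4% of the 13438 genes tested called higher and 38.0% lower. The largest slope was that of nek2, at 0.54 ± 0.075 log2 per h (edgeR adjusted p = 3.11e-05). Its level was lowest at 3.5 hpf, with 1173 normalised reads, and was 2706 at 5.0 hpf, 3105 at 7.0 hpf, 4708 at 8.0 hpf and 8789 at 9.5 hpf, which is 7.49 times its lowest level. Series 2 was not sampled at 0 hpf, where nek2 had 6522 in Series 1 and 16275 in Series 3, each from another female. For cdk2 the level was 1491 at 5.0 hpf, 1137 and 1116 in the replicates of 6.5 hpf and 3089 at 9.5 hpf, a slope of 0.32 ± 0.079 (edgeR adjusted p = 0.00247). Both gains were larger than the gaps between replicates, which were at most 1.18-fold for nek2 and 1.10-fold for cdk2.

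The falls of Series 2 came in a different shape in each gene. The bub1 level was 6125 normalised reads at 2.5 hpf, stayed between 10489 and 11346 from 4.0 to 7.5 hpf and then went to 8244, 5303, 5343 and 4701 at 8.0, 8.5, 9.0 and 9.5 hpf, a slope of -0.18 ± 0.042 log2 per h from 5.0 hpf (edgeR adjusted p = 0.0018). For ttk it was 7032 at 4.0 hpf, 5007 at 5.0 hpf, 1423 at 8.5 hpf and 2280 at 9.5 hpf, a slope of -0.18 ± 0.059 (edgeR adjusted p = 0.0155) that lost its call without 5.0 hpf (-0.12, edgeR adjusted p = 0.0931). Scaled to the library total, which moved the median of all genes to -0.13, 5 members were called lower, beside 47.0% of genes, and the share of calls that were higher went from 48.3% to 34.4%.

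Several members were lowest at 7.5 or 8.0 hpf and higher at the last point, a course that a straight line does not show. In Series 2 aurkb was lowest at 7.5 hpf, with 2329 normalised reads, and had 4251 at 9.5 hpf, while cdk1 went from 2987 at 5.5 hpf to 649 at 8.0 hpf and 1242 at 9.5 hpf. For melk the level was 271 at 8.0 hpf and 677 at 9.5 hpf. From lowest to last point these are 1.83-fold, 1.91-fold and 2.50-fold gains, a description only, since the lowest point was picked from the data. Levels of aurka and plk1 were also lowest at 8.0 hpf and ended 1.11 and 1.16 times as high, with 12614 for plk1 at 8.5 hpf in between. The 8.0 hpf point, the lowest for cdk1, melk, aurka and plk1, is 1 library without a replicate. Replicates at 6.5 hpf differed by 1.62-fold for melk, 1.52-fold for aurka, 1.11-fold for cdk1, 1.09-fold for plk1 and 1.06-fold for aurkb. None of these 5 members passed the test over the whole window, with slopes of -0.0088 for aurkb, -0.18 for cdk1, 0.05 for melk, -0.073 for aurka and -0.086 for plk1 (edgeR adjusted p of 0.173 to 0.934). The low-count bub1b was also lowest at 7.5 hpf, with 70.8 normalised reads, and had 127 at 9.5 hpf, or 39.9% of its level at 2.5 hpf. This 1.79-fold gain was smaller than the 2.08-fold gap between its replicates at 6.5 hpf, and bub1b was not called either.

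In Series 3 from 6.0 to 9.0 hpf 2 members were called higher, aurkb and bub1, and 2 lower, plk1 and melk, while 16.8% of the 10302 genes tested were called higher and 13.9% lower. The aurkb level was 2503, 2474, 2370, 2317, 2767, 2949 and 3047 normalised reads at successive points, a slope of 0.26 ± 0.06 log2 per h (edgeR adjusted p = 0.00786). For bub1 it was 4433, 4506, 3753, 4102, 3470, 4365 and 5396, a slope of 0.19 ± 0.055 (edgeR adjusted p = 0.0225). Scaled to the library total 0 members were called higher, with slopes of 0.11 for aurkb and 0.051 for bub1, the median of all genes moved to -0.16 and the share of calls that were higher went from 54.7% to 29%. The level of plk1 was 13521 at 6.0 hpf and 7435 at 9.0 hpf, a slope of -0.18 ± 0.049 (edgeR adjusted p = 0.0192), and that of melk 1338 and 572, a slope of -0.28 ± 0.091 (edgeR adjusted p = 0.038). Without 6.0, 6.5, 8.5 or 9.0 hpf 0 members were called lower, beside 887, 909, 1071 and 1253 of all genes. Without 7.0 hpf melk lost its call (edgeR adjusted p = 0.061), and bub1 lost its call without 6.5, 8.5 or 9.0 hpf (edgeR adjusted p of 0.0523 to 0.159). The level of nek2, at 3331 and 4202, had a slope of 0.18 ± 0.071 that missed the threshold (edgeR adjusted p = 0.0871), and that of cdk2, at 1389 and 1058, one of 0.023 ± 0.081 (edgeR adjusted p = 0.864). When the window opened at 5.0 hpf 4 members were called higher, beside 22% of genes. These were bub1 and, with calls gained, aurka (0.46, edgeR adjusted p = 0.0209), bub1b (0.76, edgeR adjusted p = 0.0117) and nek2 (0.19, edgeR adjusted p = 0.00504). The wider window takes in the single 5.5 hpf library. It held the lowest Series 3 polyA+ level of aurka, bub1b and nek2, at 86.7, 13 and 3070 normalised reads. The same library was also the lowest for aurkb and cdk2, at 2238 and 945, and cdk2 gained no call (edgeR adjusted p = 0.404). In that window cdk1 was called lower as well (-0.13, edgeR adjusted p = 0.0402). The slope of aurkb, at 0.13, was then not called (edgeR adjusted p = 0.0625).

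**Figure D4:**
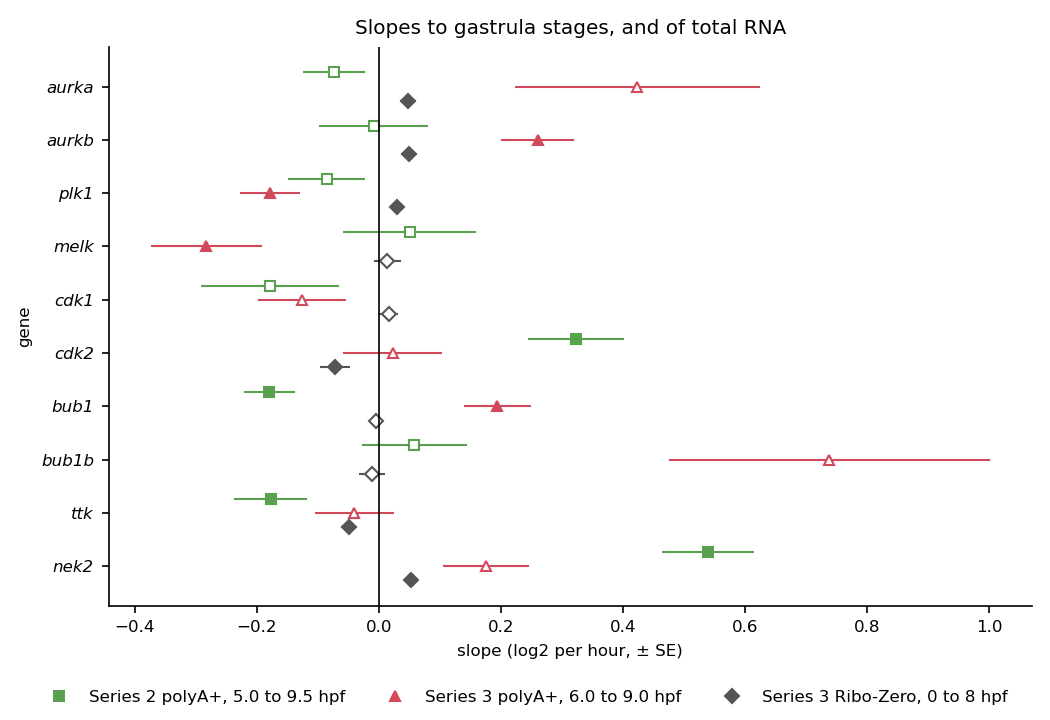
Slopes in log2 per hour (± SE) of the 10 kinase mRNAs in the polyA+ libraries of Series 2 from 5.0 to 9.5 hpf (squares) and of Series 3 from 6.0 to 9.0 hpf (triangles), and in the Ribo-Zero libraries of Series 3 from 0 to 8 hpf (diamonds); filled symbols have an adjusted p under 0.05. nek2 and cdk2 stand farthest right in Series 2, at 0.54 and 0.32, and all Ribo-Zero slopes lie within 0.072 of 0.

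By the end of sampling the polyA+ level in Series 3 was 2.15% of that at 0 hpf for aurka, 3.15% for melk, 10.7% for cdk2, 11.1% for aurkb, 16.2% for plk1, 18.9% for cdk1, 25.8% for nek2 and 38.3% for ttk. It was 98.1% for bub1b, which had been down at 13 normalised reads (3 counts, exact 95% counting interval 2.68 to 38) at 5.5 hpf, and 255% for bub1. The windows of Series 2 and Series 3 differ in stage and clock time, and the difference between their late slopes was not tested, also where bub1 fell in one and rose in the other.

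Ribo-Zero levels of the kinases stayed within a 2.15-fold range over the whole course. At 8 hpf they lay between 51% of the level at 0 hpf, for cdk2, and 110% for nek2, with bub1b at 61.9% and ttk at 64.4%. From 0 to 8 hpf the Ribo-Zero slope was called higher for 4 of 10 members and lower for 2, with 19.6% of the 11372 genes tested called higher and 18.4% lower, and the called slopes lay between -0.072 and 0.053 log2 per h. The Ribo-Zero level of nek2 ranged from 7672 to 9685 normalised reads with a median of 8543, a slope of 0.053 ± 0.01 (edgeR adjusted p = 0.00141). That of aurka ranged from 9238 to 11683 with a median of 10945, a slope of 0.048 ± 0.012 (edgeR adjusted p = 0.00846), and those of aurkb and plk1 had slopes of 0.049 and 0.029. The falls were those of cdk2, from 4180 at 0 hpf to 2133 at 8 hpf (-0.072 ± 0.024, edgeR adjusted p = 0.0327), and ttk, from 7946 to 5116 (-0.049 ± 0.013, edgeR adjusted p = 0.00868). Scaled to the library total nek2 was the 1 member called higher. The call of plk1 was lost without any 1 of the hours from 0.0 to 7.0 hpf (edgeR adjusted p of 0.0551 to 0.121) and that of cdk2 without 2.0, 7.0 or 8.0 hpf (edgeR adjusted p of 0.0507 to 0.183). For cdk2 and ttk the level at 6 hpf was still 3680 and 7199, and most of the change came at 7 and 8 hpf. Between the highest and the lowest hour the Ribo-Zero level differed by 1.19-fold in plk1 and by 2.15-fold in cdk2, the members with the narrowest and the widest range.

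The partners of these kinases showed mixed behaviour between 0 and 3 hpf of Series 3. There, 8.27% of all genes tested were called lower and 9.5% higher. Of 10 listed partners of Aurora kinases and Plk1, 7 were in the tables, and 4 were called lower and 0 higher in polyA+ minus Ribo-Zero slope, with a median of -0.51 log2 per h. The Aurora A activator tpx2 had polyA+ levels of 11999, 1010, 2032 and 625 normalised reads at 0, 1, 2 and 3 hpf, a slope difference of -1.43 ± 0.38 (edgeR adjusted p = 0.0439). That of incenp, the scaffold of Aurora B, was -0.65 ± 0.15 (edgeR adjusted p = 0.0277), that of the centrosomal cep192 was -0.63 ± 0.099 (edgeR adjusted p = 0.0114), and the fourth gene called was cdca9 (-0.51 ± 0.1, edgeR adjusted p = 0.0206). In Series 1 tpx2 did not show a steady course, with 15252 normalised reads at 0 hpf, 43805 at 0.5 hpf and 14048 at 3.0 hpf.

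Of 16 listed checkpoint and kinetochore genes 14 were found, and 7 were called lower and 1 higher, with a median of -0.33. As above, the shares of all genes were 8.27% lower and 9.5% higher. The kinetochore motor cenpe fell by 0.93 ± 0.11 log2 per h (edgeR adjusted p = 0.00769) and the checkpoint protein gene mad1l1 by 1.57 ± 0.32 (edgeR adjusted p = 0.0216), the latter from 234 normalised reads. The polyA+ level of mad1l1 in Series 3 was 0 at 3.5 hpf, with a median of 9.67 over the course, so its fall ran down to the counting limit. From 0 to 3.0 hpf of Series 1 mad1l1 went from 274 to 286 and cenpe from 14562 to 6565. The gene called higher was zw10, part of the complex that brings dynein and Mad proteins to kinetochores: its polyA+ level was 203, 508, 749 and 1602 normalised reads at 0, 1, 2 and 3 hpf beside Ribo-Zero levels of 3354, 3330, 2871 and 2773, a slope difference of 0.94 ± 0.13 (edgeR adjusted p = 0.00963). In Series 1 its polyA+ level went from 107 to 1123. Of 16 other listed mitotic kinases 13 were found, and 3 were called lower and 1 higher, with a median of -0.14, with nek4 the gene called higher (0.58 ± 0.12, edgeR adjusted p = 0.0208). Those called lower were pbk (-0.67 ± 0.14, edgeR adjusted p = 0.0229), plk2 (-0.67 ± 0.15, edgeR adjusted p = 0.0258) and plk4 (-0.63 ± 0.087, edgeR adjusted p = 0.0096). As for the members, 0 of these genes were called with the time point as a replicate block. A single higher call in a list of this size is near the share of all genes and is not read as a result about the list.

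Profiles like that of aurka were sought over the 19 polyA+ libraries of Series 3 among 8775 genes with a mean of at least 100 normalised reads. The named genes with the highest Pearson r on the log2 scale were smc4 (0.959), kif4a (0.943), mobkl1b (0.943), sema4c (0.94) and polr2b (0.935). In kif4a, a chromosome-bound kinesin, the level went from 4398 at 0 hpf to 265 at 0.5 hpf, and in smc4, a condensin subunit, from 39296 to 11496. Among the members aurkb had the highest r with aurka, at 0.87, and bub1 the lowest, at -0.58. All points share the libraries and the high level at 0 hpf, so these values describe shape only.

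The run rule of the study was applied as a description: at least 3 successive polyA+ points, each step larger than a chance step plus 10 normalised reads, and a fold of at least 10 after adding 10. Under the printed equation for the chance step no member had a run in any series, but only 1 of the 20193 genes of Series 3, or 0.00495%, had a falling run. The rule in this form thus recovered almost none of the falling genes that the study describes. The sign of its intercept is unclear from the printed equation, and nothing is read from the absence of runs among the members under that equation. In Series 1 an intercept of 0.5 gave 34 genes a rising run and 0 a falling one. An intercept of -0.5 gave 554 genes a rising run and 7 a falling one there. The latter counts lie closer to the numbers of early rises and falls that the study reports. With an intercept of -0.5 in place of 0.5, which gave 257 genes, or 1.27%, a falling run in Series 3, the only run among the members was the fall of aurka in Series 3 from 0.0 to 1.5 hpf, by 46.9-fold. That fold ends at the single 1.5 hpf library, and the aurka level given above for 2 hpf was higher than the level there.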

How the data were processed

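Paired reads were mapped by the authors with Bowtie 0.12.7 (version per the submitters' processing notes) to annotated transcripts with curated, ribosomal and mitochondrial sequences, and reads that mapped to more than 1 gene were discarded, so reads shared with a near-identical copy are missing from the deposited counts. The deposited normalised values, a signal on a common library scale, equal the authors' counts divided by the library total without the ribosomal row and multiplied by 25000000. They were recomputed from the counts to a largest relative difference of 4.87e-09. Rows that are not genes, 3 in the table of Series 1 and 2 and 7 in that of Series 3, held 0.0836 to 35.1% of the counts and were left out of the tests.

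Slopes in time (log2 per h) and slope differences were tested by the quasi-likelihood method of edgeR 4.0.16 (R 4.3.3, TMM scaling, Benjamini-Hochberg adjustment over all genes tested). Tested were genes that reached 10 counts in 50% or more of the libraries of a comparison. The fit was also tested on simulated data, with straight slopes and independent libraries. That check does not reach paired RNA or step-like falls. An SE is the slope divided by the square root of its F value. The p-values of time points in 1 clutch measure scatter around a line and not the spread between clutches. DESeq2 1.42.0, other scalings, no filter, a step or another window, scaled times, omitted time points and the time point as a replicate block were the alternatives. The block pairs libraries that share their RNA, as the study states: across 11521 genes the deviations of paired libraries correlated between 0.0368 and 0.0612 in the early window (other pairs -0.0819 to 0.0389), and across 11382 genes between 0.485 and 0.707 in the late one (other pairs -0.647 to 0.507).

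The members and lists were chosen with earlier results of these data known. All 10 members were named, kif11 in every case, and from each list at most the 3 genes with the largest called early slope difference. The genes cdca9 and nek4 were added after their values were seen. Symbols of all 10 members were found in the RefSeq table (UCB_Xtro_10.0), which is another build than that of the counts, so positions are not given. Python 3.11.15, pandas 2.3.3 and matplotlib 3.10.9 did the rest.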

Additional observations from a re-analysis of the deposited data

Results flagged for a closer look

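The early polyA+ slope differed between Series 3 and Series 1 by a test of the difference itself for 3 members. It was -0.40 log2 per h for bub1, 0.73 for melk and 0.42 for cdk1, on 14 libraries, with edgeR adjusted p-values of 0.0283, 0.0124 and 0.0462. The calls of all 3 were lost when Series 3 times were multiplied by 0.8 (edgeR adjusted p of 0.0651, 0.0718 and 0.205) and without 3.0 hpf (edgeR adjusted p of 0.123, 0.152 and 0.133). The bub1 slopes compared were 0.47 in Series 1 and 0.036 in Series 3. Female, colony, pool size, kit and sequencer differ between both series and cannot be told apart.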

How the results depend on the processing

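Time points took the place of replicates, each series is 1 clutch, and low counts limit bub1b and the aurka level of Series 3 most. Counting the call of a single gene once for each alternative, 220 kept their side of the threshold and 68 lost it under the alternatives other than omitted time points, and with omitted time points 267 kept it and 93 lost it. None of these called slopes changed sign. Of the lost calls 81 were in the early polyA+ minus Ribo-Zero difference, where the named genes of the lists were counted too. The other comparisons with lost calls had 1 to 19 each. The cause of the changes was not tested.

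With the time point as a replicate block, 0 members and 0 genes were called lower and 0 genes higher in the early polyA+ minus Ribo-Zero difference. In the late one 3 members and 647 genes were called higher, and 0 members and 339 genes lower. The block moved neither the 647 nor any count not given here by over 1.5 times. As a step from 0 hpf, 2 members were called lower in the early difference. At an unadjusted p under 0.05 by edgeR that fit had 5 members and 3785 genes, or 32.9% of genes. The genes called higher in it numbered 535. As a step, 0 members and 0 genes were called lower and 0 members and 0 genes higher in Series 1 (1383 genes with an unadjusted p under 0.05 by edgeR), and in Series 3 4 members and 1045 genes were called lower and 510 genes higher, with bub1 at -0.14.

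Scaled to the library total, the early difference had 572 genes called lower and 1770 higher with bub1 at 0.0704, and the late difference 107 lower and 105 higher with aurkb at -0.031, cdk1 at -0.036 and ttk at -0.092. The genes called lower numbered 1410 in the early slopes of Series 1, 797 in those of Series 3, 2842 in the late slopes of Series 3 and 3184 in the Ribo-Zero slopes, with 1394 Ribo-Zero slopes higher. The members called were 5 lower in Series 2, beside 6313 genes, and 0 higher in the late slopes of Series 3, beside 1159 genes. In the Ribo-Zero slopes 1 member was called higher. Uncalled late slopes were -0.0698 for melk and -0.061 for bub1b in Series 2 and -0.12 for cdk2 in Series 3. Uncalled Ribo-Zero slopes were -0.0063 for melk and -0.0044 for cdk1. Between series 1 member and 72 genes were called higher, with aurkb at -0.13, ttk at -0.11 and nek2 at -0.12.

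With DESeq2's size factors, 1 member and 268 genes were called lower in the late difference. Between series 1 member and 228 genes were then called higher, with nek2 at -0.017, and aurkb was at 0.013 in Series 2. By DESeq2's test 1501 genes were called lower in the early difference. In the late one 1 member and 597 genes were called lower and 3 members and 634 genes higher. Between series 775 genes were called lower and 649 higher, with nek2 at -0.017. The late slopes of Series 3 had 4 members and 2040 genes called higher, and aurkb was at 0.013 in Series 2. With no filter 1 member and 508 genes were called higher in the late difference. Between series 1 member and 199 genes were then called higher, with nek2 at -0.0071, and 3345 Ribo-Zero slopes were higher. With Series 3 times multiplied by 0.8, 0 members and 233 genes were called lower and 0 members and 108 genes higher between series, with aurkb at -0.16, ttk at -0.028 and nek2 at -0.19. From 4.5 hpf 4 members were called lower in Series 2, with bub1b at -0.11. In that fit 6 members and 10168 genes, or 76.5% of genes, had an unadjusted p under 0.05 by edgeR. In the main window of Series 2, 38.0% of all genes were called lower. The 4 members are therefore not read as a result about the members. From 5.0 hpf 4 members and 2243 genes were called higher in Series 3. With an intercept of -0.5, 1 member had a falling run in Series 3.

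With each time point left out in turn, counts called lower in the early difference ranged from 0 to 9 members and from 0 to 2603 genes, with 0 to 2403 genes higher. In the late difference they ranged from 0 to 26 genes lower and 0 to 68 higher. Early slopes of Series 3 gave 827 to 1770 genes lower and 902 to 1791 higher. Between series they gave 0 to 1 member and 150 to 552 genes lower, and 0 to 2 members and 6 to 670 genes higher. Late slopes gave 1 to 3 members lower in Series 2, where 38.0% of all genes were called lower with every point kept. In Series 3 they gave 0 to 2 members and 887 to 1455 genes lower, and 1 to 3 members and 1245 to 1708 genes higher. Ribo-Zero slopes gave 1 to 2 members lower, where 18.4% of all genes were called lower with every point kept. Uncalled slopes that changed sign ranged as follows: bub1 from -0.16 to 0.00197 in the early and aurkb from -0.16 to 0.37 in the late difference. Between series aurka ranged from -0.75 to 0.57, aurkb from -0.099 to 0.19, ttk from -0.077 to 0.16 and nek2 from -0.17 to 0.16. In Series 2 aurkb ranged from -0.096 to 0.0603, melk from -0.082 to 0.16 and bub1b from -0.019 to 0.13, in Series 3 cdk2 from -0.014 to 0.064, and in Ribo-Zero slopes melk from -0.00044 to 0.049, bub1 from -0.0097 to 0.0013 and bub1b from -0.021 to 0.00997.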
